A study of Mus musculus with 38 samples.

Results

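Heat shock proteins and chaperones were compared between dVenus+ and dVenus- cells of the same mouse. The genes were taken by symbol: Hspa, Hspb, Hspd, Hspe and Hsph genes, Dnaja, Dnajb and Dnajc genes, Cct2 to Cct8, Tcp1, and Bag1 to Bag6. This gave 87 of 23420 genes, of which 84 reached 10 counts in at least 1 library and 2 had no count in any. All mice were adult males of the C57BL/6J strain. They carried Arc::dVenus, a transgene that puts a short-lived fluorescent protein under control of the Arc promoter, so that cells with recent Arc expression glow. Fear conditioned mice (FC, 12 mice) received tones and shocks in a chamber, no-shock mice (NS, 4 mice) received the chamber and tones alone, and home-cage mice (HC, 3 mice) were not exposed. From each mouse, 1 library was made of the contents of 10 dVenus+ and 1 of 10 neighboring dVenus- granule cells of the dentate gyrus, drawn out as nucleated patches from cooled slices 24 h after training in FC and NS mice. A library thus pools 10 cells, and the 38 libraries come from 19 mice, which are the replicates.

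Chaperones help other proteins to fold, keep unfolded chains from clumping and pass them on to degradation. HSP70 proteins bind unfolded stretches and release them again when they split ATP. J proteins (the Dnaj genes) deliver the client and switch on the ATPase, and HSP110 and Bag proteins exchange the nucleotide and so free the client. TRiC is a barrel of related subunits, encoded by Tcp1 and the Cct genes, that folds actin and tubulin, and Hspd1 with its lid Hspe1 forms the corresponding chamber of mitochondria. When unfolded protein builds up, the factor HSF1 binds heat shock elements in promoters and induces part of the family, while a separate response of the endoplasmic reticulum (ER) raises Hspa5 and its J proteins. In neurons, Hspa8 and its J proteins also take apart clathrin coats and keep synaptic vesicle proteins folded.

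Reads counted on genes ran from 1352288 to 11151828 in FC dVenus+ and from 3554946 to 18394761 in FC dVenus- libraries, and from 5713182 to 9096451 in NS and HC libraries. The dVenus+ library had the higher total in 3 of 12 FC mice. Arc, the gene whose promoter drives the reporter, was higher in the dVenus+ library in 12 of 12 FC, 4 of 4 NS and 3 of 3 HC mice. In FC mice it ran from 477 to 1540 normalized CPM (counts relative to scaled library size) in dVenus+ libraries, and from 0 to 172 in dVenus- libraries. The dVenus- libraries of mice 06, 07 and 14 held 1276, 1095 and 2549 Arc counts. The summed level of 7 granule cell markers was lower in the dVenus+ library in 12 of 12 FC and 4 of 4 NS mice and higher in 1 of 3 HC mice, with 69.8 to 857 CPM in FC dVenus+ and 543 to 2044 CPM in FC dVenus- libraries. That of 10 microglia markers was higher in dVenus+ libraries in 12 of 12 FC, 4 of 4 NS and 2 of 3 HC mice, with 36.1 to 2036 CPM against 1.28 to 724 CPM in FC mice. In FC mice 1 of these 10 microglia markers was at 0 in most libraries, and none was at 0 in all. Markers of astrocytes were higher in dVenus+ libraries in 3 of 12 and of oligodendrocytes in 4 of 12 FC mice, and the endothelial marker Pecam1 was at 0 in all FC libraries. In HC mice astrocyte markers were higher in 3 of 3, with 1247 to 1403 CPM in dVenus+ and 227 to 484 CPM in dVenus- libraries. The part of these markers in the results on chaperones was not tested. By their sample IDs, FC libraries form 3 batches, of 6, 4 and 2 mice. Libraries of NS and HC mice form a further one, so that training and batch cannot be told apart between FC and these mice. Both libraries of a mouse share a batch.

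Promoter sequences of some members are shown first, each of which holds an element that was searched for. Hspa8 and Dnajc2, named below, had no promoter sequence to show. A heat shock element (HSE) was searched as GAANNTTC or TTCNNGAA, each of which reads the same on both strands, and in a form with 3 units in which a further GAA or TTC follows after another gap of 2 bases. The windows are those of RefSeq (GRCm38.p6), 250 bases before to 50 after an annotated start, written 5′ to 3′ on the gene's strand, and 73 of 87 members have one. Capitals mark the HSE in the first 5 sequences. In the last they mark the ER stress element, searched as CCAAT, 9 bases and CCACG on both strands.
Hsph1 (chr5:149636287-149636586, - strand), shown for the strongest call in HSP110: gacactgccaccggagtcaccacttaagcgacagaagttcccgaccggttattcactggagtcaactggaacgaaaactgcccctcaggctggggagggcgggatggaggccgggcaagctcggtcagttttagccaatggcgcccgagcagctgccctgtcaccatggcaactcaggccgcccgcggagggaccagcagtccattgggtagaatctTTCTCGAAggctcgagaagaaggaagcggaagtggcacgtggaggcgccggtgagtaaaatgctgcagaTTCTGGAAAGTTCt
Bag3 (chr7:128523333-128523632, + strand), shown because it was called: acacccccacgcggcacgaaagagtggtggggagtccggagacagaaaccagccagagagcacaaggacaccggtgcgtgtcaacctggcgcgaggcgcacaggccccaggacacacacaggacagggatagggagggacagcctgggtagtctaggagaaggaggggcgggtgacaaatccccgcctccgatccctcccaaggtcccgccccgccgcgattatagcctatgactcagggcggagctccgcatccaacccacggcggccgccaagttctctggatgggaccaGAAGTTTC
Hspe1 (chr1:55087898-55088197, + strand), shown for 3-unit elements: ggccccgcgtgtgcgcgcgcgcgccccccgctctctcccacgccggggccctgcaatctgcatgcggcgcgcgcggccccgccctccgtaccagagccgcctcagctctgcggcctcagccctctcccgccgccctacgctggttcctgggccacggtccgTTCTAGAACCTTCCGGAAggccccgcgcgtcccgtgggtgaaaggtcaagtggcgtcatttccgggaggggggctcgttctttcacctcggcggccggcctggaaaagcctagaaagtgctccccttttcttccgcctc
Hspa1a (chr17:34972107-34972406, - strand), shown as the classic heat-induced gene: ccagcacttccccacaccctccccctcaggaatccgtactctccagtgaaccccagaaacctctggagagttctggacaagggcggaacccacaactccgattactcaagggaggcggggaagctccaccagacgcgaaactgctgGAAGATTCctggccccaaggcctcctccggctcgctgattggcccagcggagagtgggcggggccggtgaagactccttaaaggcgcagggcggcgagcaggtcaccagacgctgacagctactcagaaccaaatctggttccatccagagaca
Hspa1b (chr17:34959189-34959488, - strand), its near copy: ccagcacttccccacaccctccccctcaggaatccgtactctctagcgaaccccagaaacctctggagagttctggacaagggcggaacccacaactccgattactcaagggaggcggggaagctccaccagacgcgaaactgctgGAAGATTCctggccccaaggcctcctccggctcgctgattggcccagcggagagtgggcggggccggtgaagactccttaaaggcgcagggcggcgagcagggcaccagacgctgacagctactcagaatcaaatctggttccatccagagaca
Hspa5 (chr2:34771840-34772139, + strand), shown for the ER branch: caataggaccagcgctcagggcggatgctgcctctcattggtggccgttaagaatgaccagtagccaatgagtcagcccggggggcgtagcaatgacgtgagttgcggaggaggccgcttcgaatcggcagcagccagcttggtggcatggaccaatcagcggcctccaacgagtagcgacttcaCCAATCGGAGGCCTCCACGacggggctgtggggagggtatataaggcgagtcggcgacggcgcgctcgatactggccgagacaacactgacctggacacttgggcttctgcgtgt

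The Hsph1 window holds a 2-unit element shortly before the annotated start and a 3-unit element after it. The Hspe1 window holds 2 overlapping 3-unit elements, and the annotated starts of Hspe1 and Hspd1, which are read in opposite directions, lie 111 bases apart. The Hspa1a and Hspa1b windows differ at 4 of 300 positions and share their element, and with 50-base reads kept only when uniquely aligned, counts of these near-identical genes are uncertain. A 2-unit HSE was found in 21 of 73 members (28.8%) and in 17.0% of all 27025 genes with a window. The heat-induced Dnajb1, not shown, held none in either of its windows. A 3-unit HSE was found in 4 members, Hsph1, Hspd1, Hspe1 and Dnajb6 (5.48%), and in 0.662% of all genes. The ER stress element was found in Hspa5 and Dnajc3, 2 of 73 members (2.74%), and in 0.137% of all genes, and TGACGTCA, the cAMP response element, in Dnajc27 alone (1.37%) and in 2.03% of all genes. A match is a description of these letters and no evidence of binding.

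In FC mice, 4 members were higher in dVenus+ cells and none was lower: Hspa8 and Hsph1 of the HSP70 and HSP110 class, Dnajc2 of the J proteins, and Bag3. Calls required a log2 fold change beyond 1 in either direction and an adjusted p below 0.05 (edgeR quasi-likelihood test, Benjamini-Hochberg over all genes tested). Of the 87 members, 64 passed the filter of at least 10 counts in at least 12 libraries. The 4 calls compare with 4.35% of the 9709 genes tested that were called in either direction, and with 1.5% that were called as higher. Over the 64 members the median log2 fold change was 0.35, with 41 higher and 23 lower, and over all genes it was -0.11. At an unadjusted p under 0.05, 12 members were higher and 1 was lower, together 20.3% of those tested, beside 17.8% of all genes (6.49% higher and 11.3% lower). With library totals alone and no scaling factors, no member was called by edgeR, the median of all genes moved from -0.11 to -0.46 and that of the members from 0.35 to 0.01. Bulk values of this kind cannot tell fewer cells that express a gene from less RNA in each cell.

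Hspa8 (GRCm38 chr9:40800984-40810087, + strand), the constitutive HSP70 that also uncoats clathrin-coated vesicles, was the most abundant member. Its mean over 38 libraries was 701 normalized CPM per kb of exons, and the next highest among members with an exon length, Cct5, stood at 122. In FC mice Hspa8 ran from 1346 to 4347 CPM in dVenus+ libraries (median 2348) and from 229 to 1825 CPM in dVenus- libraries (median 1228). It was higher in the dVenus+ library in 11 of 12 mice, mouse 04 being the exception, and the groups overlapped. In mice 05, 07 and 14 it was higher only after scaling, with factors of 0.337, 0.510 and 0.418 for their dVenus+ libraries. The highest level, 4347 CPM, is that of mouse 14. The log2 fold change was 1.17 (SE 0.259, adjusted p = 0.00829 in edgeR). In NS mice the dVenus+ libraries stood at 1278, 764, 1070 and 3626 CPM and their dVenus- partners at 1026, 1037, 876 and 1614 CPM. In HC mice they stood at 710, 603 and 2240 CPM against 2138, 1999 and 1323 CPM. Hspa8 was thus higher in 3 of 4 NS and 1 of 3 HC mice, in NS mice 20 and 21 only after scaling. Its log2 fold changes of 0.32 (SE 0.496) and -1.04 (SE 0.704) passed no test (adjusted p = 0.876 and 0.736 in edgeR).

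**Figure D1:**
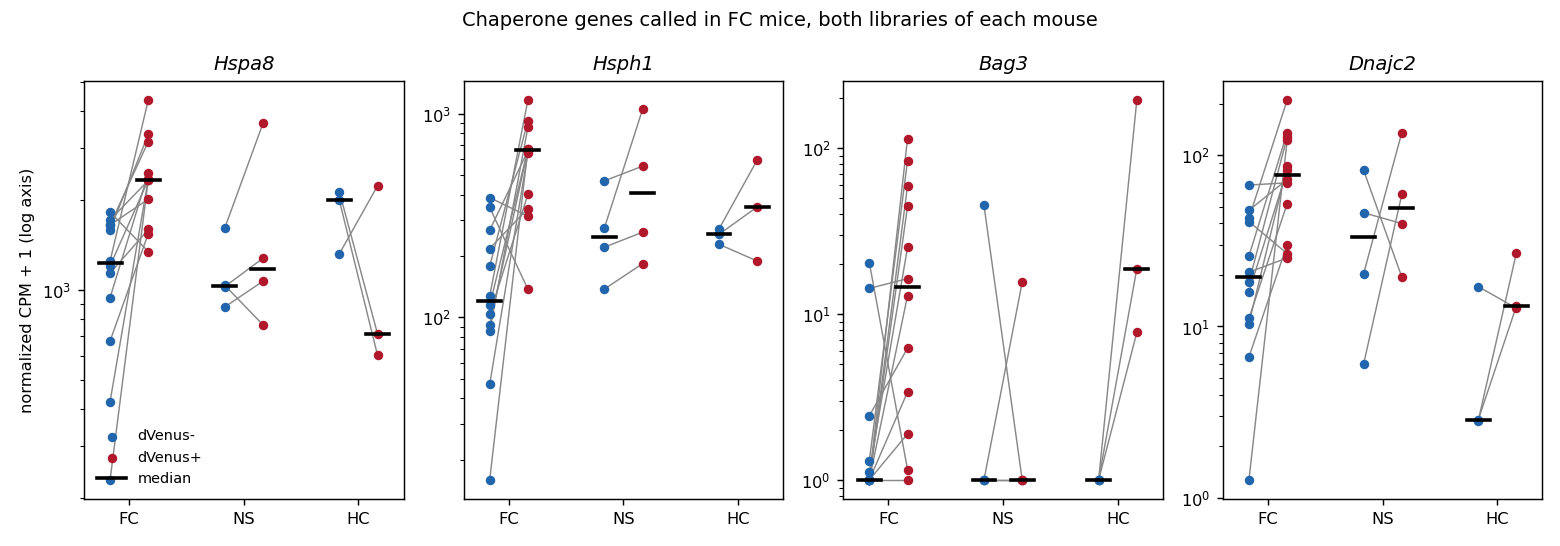
Normalized CPM plus 1, on a log axis, of the 4 members called in FC mice, by training history; points are libraries, thin lines join both libraries of 1 mouse, and black bars are medians. In FC mice the median of Hsph1 rises from 120 to 661 CPM and that of Hspa8 from 1228 to 2348 CPM, while Bag3 is at or near 0 in most dVenus- libraries.

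Hsph1 (chr5:149614287-149636376, - strand), the HSP110 that exchanges the nucleotide of HSP70, gave the smallest p-value of the family. In FC mice it ran from 137 to 1165 CPM in dVenus+ libraries (median 661) and from 14.9 to 386 CPM in dVenus- libraries (median 120). It was higher in dVenus+ in 10 of 12 mice, mice 04 and 14 being the exceptions, with a log2 fold change of 2.22 (SE 0.457, adjusted p = 0.00499 in edgeR). NS dVenus+ libraries held 551, 183, 261 and 1048 CPM and their partners 467, 137, 220 and 273 CPM. Hsph1 was thus higher in 4 of 4 NS mice, but by less than its error (log2 fold change 0.69, SE 0.706, adjusted p = 0.795 in edgeR). HC dVenus+ libraries held 188, 591 and 348 CPM and their partners 227, 271 and 255 CPM, which gave a log2 fold change of 0.29 (SE 0.897).

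Bag3 (chr7:128523616-128546981, + strand), a co-chaperone that brings HSP70 clients to selective autophagy, was low or absent in most libraries. In FC mice the dVenus+ libraries held 0 to 114 CPM (median 13.7) and 11 of 12 had any count, while 7 of 12 dVenus- libraries had none and the highest held 19.5 CPM. It was higher in dVenus+ in 10 of 12 mice, with a log2 fold change of 4.58 (SE 1.28, adjusted p = 0.0343 in edgeR), a size that rests on counts near 0. The call was lost in 7 of the 10 fits without 1 mouse in which Bag3 was tested, and with the granule cell marker level as a covariate the estimate turned to -0.67 (adjusted p = 0.989 in edgeR). That marker level was lower in the dVenus+ library of every FC mouse. The fit can therefore hardly part it from cell type and does not check the call. In the 3 HC mice the dVenus+ libraries held 65, 419 and 51 counts and the dVenus- libraries none. Against 3 counts per dVenus- library the level was at least 80.1-fold, 322-fold and 23.2-fold higher. Bag3 passed the HC filter through these dVenus+ libraries alone, so that a test of it there could go only this way. In NS mice 1 dVenus+ library held 49 counts and 1 dVenus- library of another mouse held 291, and all others held none. Intervals and such bounds cover counting error only.

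Dnajc2 (chr5:21757267-21785251, - strand), a J protein that works with Hspa14 at the ribosome on chains being made, ran from 24.1 to 209 CPM in FC dVenus+ libraries (median 76.1) and from 0.27 to 66.1 CPM in dVenus- libraries (median 18.5). It was higher in 11 of 12 mice, with a log2 fold change of 2.02 (SE 0.595, adjusted p = 0.0493 in edgeR). Hspa14, its partner at the ribosome, gave 0.55 (SE 0.806, adjusted p = 0.795). In NS mice Dnajc2 was higher in 2 of 4 and in HC mice in 2 of 3, with log2 fold changes of 1.00 (SE 1.45) and 1.65 (SE 1.75).

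Which members were called depended on single mice. Without any 1 mouse, between 2 and 4 members were called, and 2 without mouse 01, 03, 06, 07, 09, 10, 12 or 13. Hsph1 was called in each of these 12 fits and Hspa8 in all but that without mouse 03, where its log2 fold change was 0.99 (adjusted p = 0.0179 in edgeR). Dnajc2 missed the threshold in 9 of the 12 fits. Bag3 failed the count filter without mouse 06 or 10. Without mice 03 and 05, or without mice 06, 07 and 14, whose dVenus- libraries held most Arc counts, Hsph1 alone was called. Without mice 04 and 05, whose dVenus+ libraries were least like the others, 5 members were called, with Cct8 and Hspe1 in place of Dnajc2. Within the batch of 6 mice and within that of 4 no member was called, with log2 fold changes of 2.28 and 1.34 for Hsph1 (adjusted p = 0.135 and 0.546) and of 1.24 and 0.39 for Hspa8 (adjusted p = 0.0923 and 0.765). In the batch of 2 mice the mean within-mouse log2 ratio of CPM plus 1 was 3.31 for Hsph1 and 2.37 for Hspa8. With the granule cell marker level as a covariate, edgeR called 0 of 9709 genes, members included. As that level was lower in the dVenus+ library of every FC mouse, this fit can hardly part it from cell type. The loss of all calls can therefore not be read as a result on the members. Shares of all genes called are not given for the fits with fewer mice, so that their counts are no result on the members alone.

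**Figure D2:**
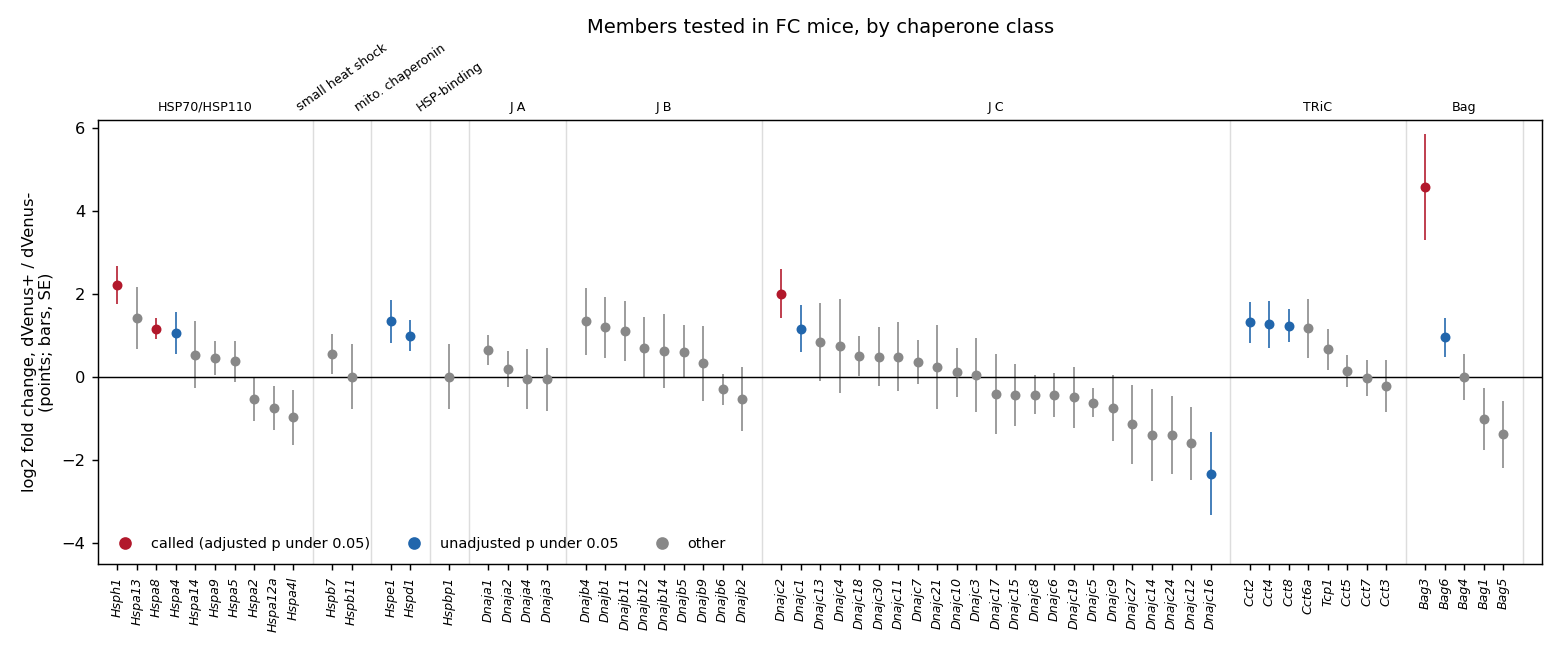
Log2 fold change between dVenus+ and dVenus- cells in FC mice for the 64 members tested, by chaperone class; points are edgeR estimates from 12 mice and bars are SE. The 4 called members, in red, all lie above 0, and the 9 further members with an unadjusted p under 0.05, in blue, include 3 TRiC subunits, both genes of the mitochondrial chaperonin and, below 0, Dnajc16.

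Of the 14 genes of the HSP70 and HSP110 class 10 were tested in FC mice, and Hspa8 and Hsph1 were the only calls by edgeR. Hspa4, a further HSP110-type exchange factor, had a log2 fold change of 1.08 (SE 0.508, adjusted p = 0.265). The HSP70 of the ER, Hspa5, stood at 0.39 (SE 0.496), and that of mitochondria, Hspa9, at 0.46 (SE 0.4). Hspa1a and Hspa1b, the strictly heat-induced HSP70 genes, did not pass the filter. Hspa1a had a count in 8 of 12 FC dVenus+ and 6 of 12 dVenus- libraries, with at most 38.2 CPM, and Hspa1b in 6 and 4, with at most 12.7 CPM. No HC dVenus+ and no NS dVenus- library held a Hspa1a count.

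Small heat shock proteins, which hold unfolded protein without ATP, were scarce. Of 8 members 2 were tested in FC mice, Hspb7 (log2 fold change 0.56, SE 0.485) and Hspb11 (0.02, SE 0.79), a subunit of the intraflagellar transport complex rather than a classic chaperone. Hspb1 had a count in 3 of 12 FC dVenus+ libraries, with 23.2 CPM at most, and in none of the 12 dVenus- libraries. In the summed level of the class, FC dVenus+ libraries ran from 0.203 to 46.8 CPM and dVenus- libraries from 1.57 to 58.6 CPM, and these ranges overlapped.

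The mitochondrial chaperonin was higher in most FC mice but passed no adjusted threshold. Hspd1 ran from 64.2 to 376 CPM in dVenus+ libraries (median 205) and from 29.7 to 206 CPM in dVenus- libraries (median 112), and was higher in 10 of 12 mice (log2 fold change 1.00, SE 0.377, adjusted p = 0.133). Hspe1 was higher in 9 of 12 mice (1.35, SE 0.527, adjusted p = 0.155). In NS and HC mice together, a fit of 7 mice that shares no library with FC, the estimates were -1.52 (SE 0.833) for Hspd1 and -0.39 (SE 1.04) for Hspe1, and passed no test. Both genes have processed copies in the genome, so that reads which fit several copies were not counted.

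Among TRiC subunits 8 of 10 were tested in FC mice and none was called. Their median log2 fold change was 0.92, with 6 higher and 2 lower. Cct8 came closest to the threshold: it ran from 41.1 to 403 CPM in dVenus+ libraries (median 307) and from 31.0 to 298 CPM in dVenus- libraries (median 117), was higher in 11 of 12 mice, and had a log2 fold change of 1.24 (SE 0.401, adjusted p = 0.0733 in edgeR). Cct2 (1.32, SE 0.504) and Cct4 (1.27, SE 0.561) had an unadjusted p under 0.05, while Tcp1 stood at 0.67 (SE 0.493), Cct6a at 1.18 (SE 0.716), and Cct3, Cct5 and Cct7 between -0.21 and 0.15. In NS and HC mice together, 1 of these 8 subunits was higher and 7 lower, with a median of -0.81. Tcp1 was lower there in the dVenus+ library in 4 of 4 NS and 3 of 3 HC mice (log2 fold change -1.97, SE 0.85, adjusted p = 0.25).

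J proteins gave estimates of both signs, from -2.32 for Dnajc16 to 2.02 for Dnajc2, and Dnajc2 alone was called. Of 4 A-type genes 2 were higher in FC mice, among them Dnaja1, the main partner of cytosolic HSP70 (0.66, SE 0.35, adjusted p = 0.333). Of 13 B-type genes 9 were tested, 7 were higher and none was called, with Dnajb4 at 1.35 (SE 0.811), the heat-induced Dnajb1 at 1.20 (SE 0.739) and Dnajb9, induced by ER stress, at 0.34 (SE 0.903). The 23 C-type genes tested split into 11 higher and 12 lower. Dnajc5, the cysteine string protein of synaptic vesicles, was lower in dVenus+ in 11 of 12 FC mice, but by a log2 fold change of -0.61 (SE 0.353, adjusted p = 0.384). Dnajc6, auxilin, which recruits Hspa8 to clathrin coats in neurons, gave -0.43 (SE 0.521). Dnajc16 was lower in 9 of 12 mice (-2.32, SE 1, adjusted p = 0.207).

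Of the Bag genes 5 of 6 were tested, with 3 higher and 2 lower, and Bag3 alone was called. Bag6, which guards membrane proteins on the way to the ER, gave 0.96 (SE 0.465, adjusted p = 0.28), and Bag5 gave -1.38 (SE 0.817, adjusted p = 0.397). Hspbp1, an exchange factor of HSP70, gave 0.01 (SE 0.78).

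**Figure D3:**
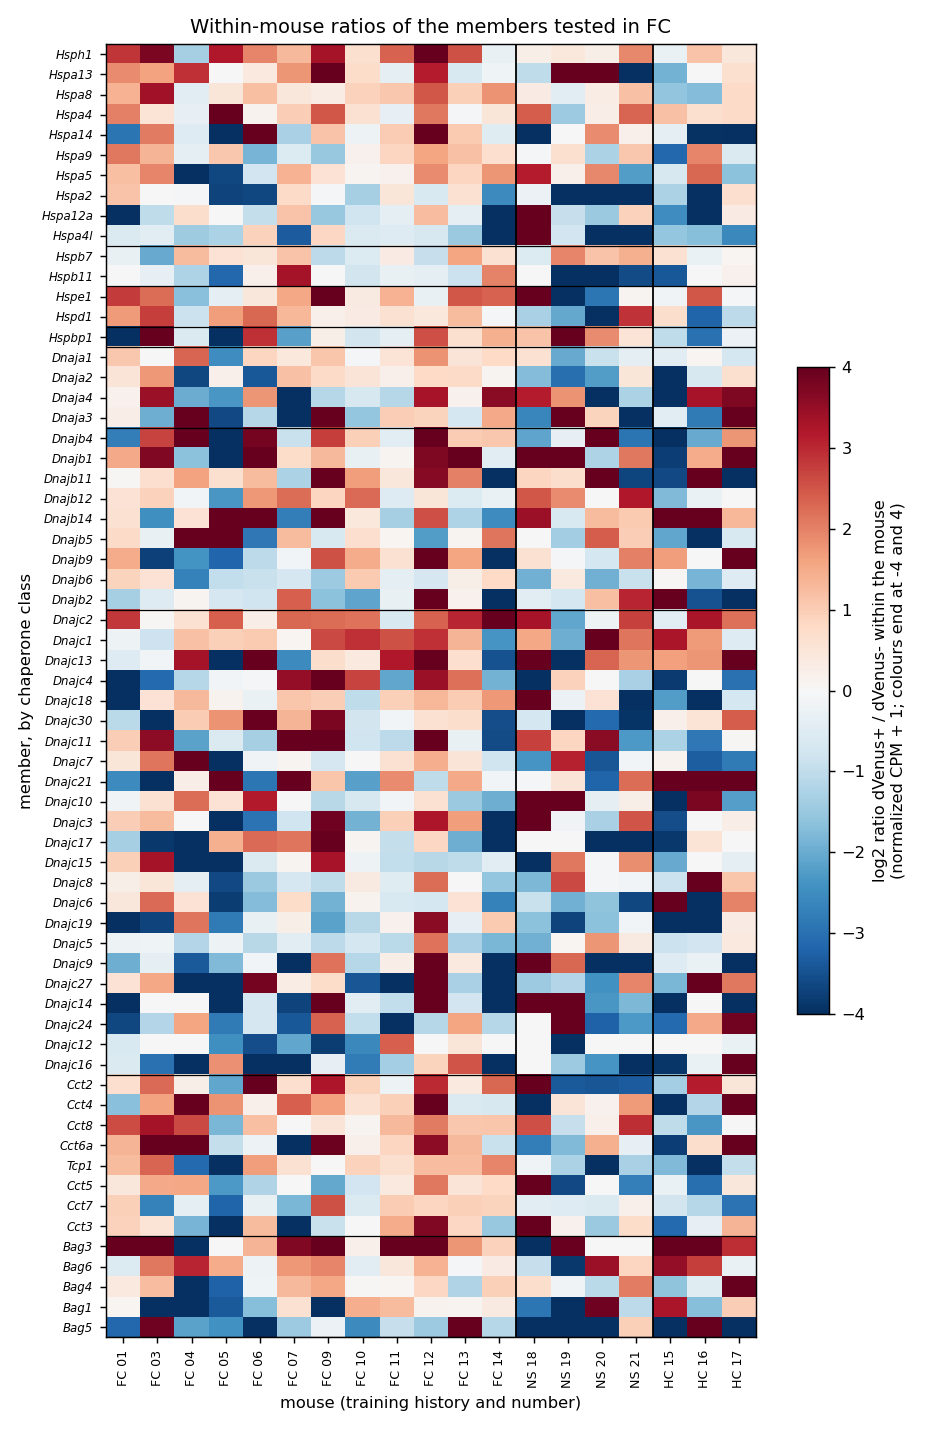
Log2 ratio of dVenus+ to dVenus- (normalized CPM plus 1) within each mouse for the 64 members tested in FC; columns are mice, rows members by class, red is higher in dVenus+. The columns differ: mouse FC 12 has 51 of 64 members higher and mouse FC 05 has 21.

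The mice differed in how far the family as a whole went one way. In FC mice between 21 (mouse 05) and 51 (mouse 12) of the 64 members were higher in the dVenus+ library, and the median within-mouse log2 ratio of the members ran from -1.80 in mouse 05 to 1.98 in mouse 12. The median over all 9709 genes was -0.73 in mouse 05 and 0.16 in mouse 12. The dVenus+ library of mouse 05 had the fewest genes detected among FC libraries (7860). The dVenus- library of mouse 12 had the fewest reads on genes among FC dVenus- libraries (3554946). The part of library quality in these differences was not tested. In NS mice 24 to 33 and in HC mice 16 to 36 of the same members were higher. The summed level of all 87 members was 8149 ± 1762 CPM (SD, n = 12) in FC dVenus+ and 5338 ± 1703 CPM (SD, n = 12) in FC dVenus- libraries. It was 6414 ± 3266 and 6531 ± 552 CPM (SD, n = 4) in NS mice, and 5657 ± 1891 and 7264 ± 797 CPM (SD, n = 3) in HC mice. Such sums weigh abundant genes most, above all Hspa8, and do not measure the family as a whole. In FC mice the HSP70 and HSP110 class, which holds Hspa8 and Hsph1, had mean sums of 3920 and 1978 CPM in dVenus+ and dVenus- libraries. TRiC had 1443 and 952 CPM, and C-type J proteins had 1021 and 1045 CPM.

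The members were also grouped by the response that induces them and by compartment. Of 11 genes induced through HSF1, 8 were tested, all 8 were higher, and 3 were called (Hsph1, Hspa8, Bag3), with a median log2 fold change of 1.27. This list was drawn up with earlier results known, so that its direction is no independent evidence. Of 7 ER genes (Hspa5, Hspa13, Dnajb9, Dnajb11, Dnajc1, Dnajc3, Dnajc10) all 7 were tested and higher, none was called, and the median was 0.39. Of 8 mitochondrial genes 5 were higher, none was called, and the median was 0.48. In NS and HC mice together the medians were -0.40 for the heat-inducible list (2 higher and 5 lower of 7 tested), 0.26 for the ER list (6 of 7 higher) and -0.72 for the mitochondrial list (8 of 8 lower), with no call. The ER list went opposite ways in these mice, with 7 of 7 higher and a median of 1.43 in NS, above that in FC, and 2 of 7 higher and a median of -0.72 in HC. Among the members tested in FC, the 13 with an HSE of at least 2 units in the promoter window had a median of 1.00 (10 higher, 3 lower) and the 40 without had 0.03 (22 higher, 18 lower). Over all genes tested with a window, those medians were -0.09 for 999 genes with and -0.11 for 6289 genes without the element. Hspa8 and Dnajc2 were not in the promoter table.

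**Figure D4:**
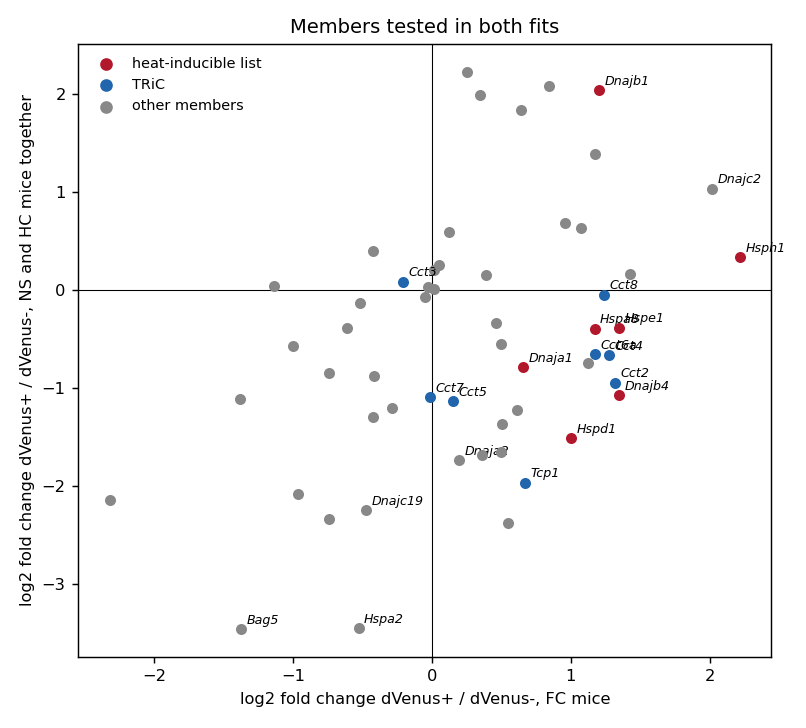
Log2 fold change between dVenus+ and dVenus- cells in FC mice (horizontal) and in NS and HC mice together (vertical) for the members tested in both fits, which share no library; red marks the heat-inducible list and blue TRiC. Most red and blue points lie to the right of 0 and below 0, while Dnajb1 and Hsph1 lie above 0 on both axes; the error of each estimate is large and no point is called on the vertical axis.

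The fit of NS and HC mice together reuses the libraries of the NS and HC fits. In NS mice 58 members were tested and none was called by edgeR, where 0.0489% of 8187 genes were called. At an unadjusted p under 0.05, Hspa2, an HSP70 best known from the testis, and Dnajc28 were lower and none was higher, which is 3.45% of the members beside 8.67% of all genes. Hspa2 held 0.202 to 74.7 CPM in NS dVenus+ and 88.4 to 222 CPM in dVenus- libraries (log2 fold change -4.40, SE 1.53, adjusted p = 0.493 in edgeR). Its NS dVenus+ libraries held 554, 2, 1 and 23 counts, so that this size rests on few counts in mice 19, 20 and 21. In mouse 18 the levels were 74.7 CPM in dVenus+ and 88.4 CPM in dVenus-. In HC mice 58 members were tested and none was called, as was none of all 7588 genes (0%), and 2 members, Bag3 and Dnajc21, had an unadjusted p under 0.05, both higher (3.45%, beside 7.01% of all genes). Both passed the HC filter through dVenus+ libraries alone and had no count in any HC dVenus- library. Their direction was thus fixed by the filter and is no evidence. The median of the members in HC mice was -0.91, with 23 higher and 35 lower, beside 0.02 for all genes. In NS and HC mice together 56 members were tested and none was called by edgeR, where 0.757% of 7529 genes were. There 5 members had an unadjusted p under 0.05, all of them lower: Hspa2, Dnaja2, Tcp1, Bag5 and Dnajc19. That is 8.93% of the members, beside 16.3% of all genes (8.61% lower), so that this count does not exceed the background. The Wald test of DESeq2 called 5 members in each of these 3 fits, beside 8.13% of all genes in NS, 8.24% in HC and 14.1% in both together, and 10 members in FC mice, beside 16.8% of all genes.

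Whether the difference between dVenus+ and dVenus- cells itself differed with training was tested as an interaction over 14075 genes, 76 of them members. No gene (0%) was called by edgeR for FC against NS and none (0%) for FC against HC, and at an unadjusted p under 0.05 there were 8 and 4 members, or 10.5% and 5.26%, beside 8.18% and 9.26% of all genes. Both interactions use the same FC libraries. The interaction of Hspa8 was 2.03 on the log2 scale (SE 0.601, adjusted p = 0.399 in edgeR) for FC against HC. After scaling, Hspa8 was higher in 11 of 12 FC and 1 of 3 HC mice. Of the 4 members for FC against HC, Hspa8 and Cct8 (2.24, SE 0.993, adjusted p = 0.49) were positive. Dnajc21 and Dnajc28 were negative (adjusted p = 0.399 and 0.481 in edgeR), with fitted sizes that rest on counts near 0. Of the 8 for FC against NS, 7 were positive: Hspb11, Hspa2, Dnajc30, Cct2, Hspd1, Dnajc17 and Tcp1. Dnajb12 was negative (adjusted p = 0.602 in edgeR). Hspb11 (11.6, SE 3.31, adjusted p = 0.427) and Dnajc17 had no count in any NS dVenus+ library. Hspa2 (4.10, SE 1.58, adjusted p = 0.584) had a log2 fold change of -0.53 in FC and -4.40 in NS mice. Hspd1 gave 2.44 (SE 1.12, adjusted p = 0.592) and Cct2 gave 3.55 (SE 1.59, adjusted p = 0.591). The Wald test of DESeq2 called 7 members for FC against NS and 8 for FC against HC, beside 8.47% and 11.2% of all genes. A difference between training histories was thus not shown by edgeR for any member.

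**Figure D5:**
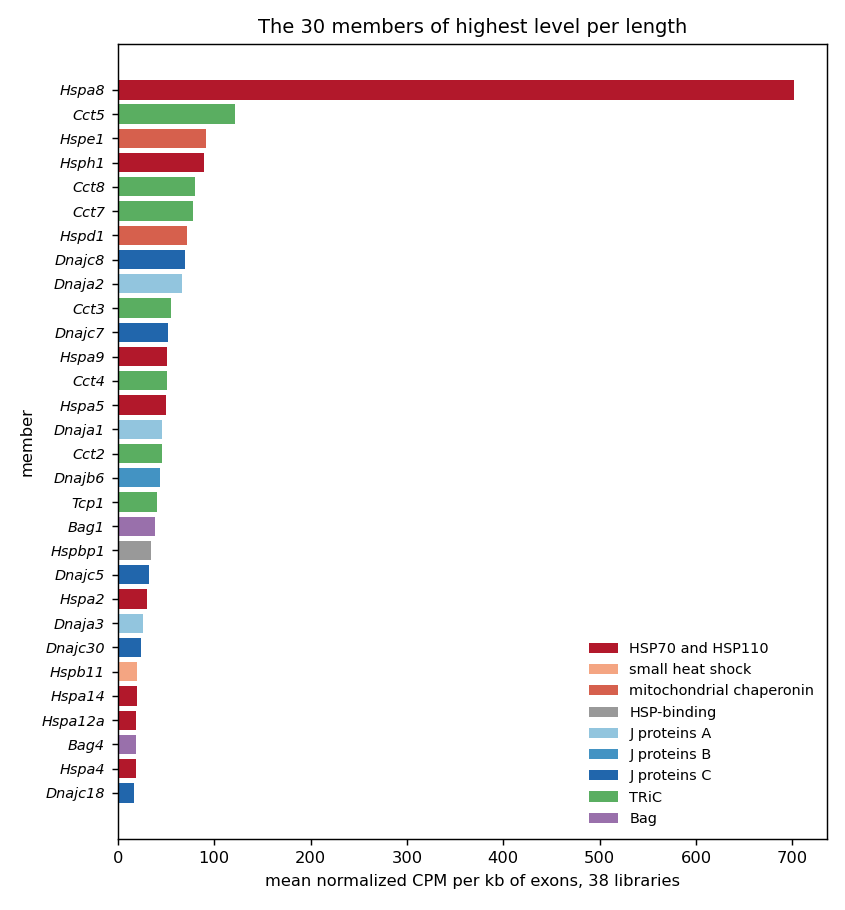
Mean normalized CPM per kb of exons over 38 libraries for the 30 members of highest level among those with an exon length, coloured by class. Cct6a had no exon length and is left out. Hspa8 stands at 701 and all others at 122 or less.

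Partners that the symbol rule leaves out were followed from a list of 53 measured genes, also drawn up with earlier results known (HSP90 and its co-chaperones, heat shock factors, prefoldin, ER folding enzymes and mitochondrial proteases). In FC mice 48 were tested, 2 were called and both were higher, beside 4.35% of all genes called in either direction and 1.5% called as higher. Hsp90aa1, the inducible cytosolic HSP90, ran from 1027 to 4490 CPM in dVenus+ libraries (median 1776) and from 244 to 1316 CPM in dVenus- libraries (median 679), and was higher in 11 of 12 mice (log2 fold change 1.57, SE 0.276, adjusted p = 0.00102 in edgeR). Hsp90ab1, the constitutive form, stood at 0.17 (SE 0.209, adjusted p = 0.748). Clpx, the unfolding subunit of a mitochondrial protease, was higher in 11 of 12 mice and gave 2.22 (SE 0.632, adjusted p = 0.04). Hsf1 gave 0.39 (SE 0.812, adjusted p = 0.863). The median of the 48 was 0.31, with 31 higher and 17 lower. In NS and HC mice Hsp90aa1 was higher in 1 of 4 and 3 of 3 mice, with log2 fold changes of 0.36 (SE 0.503) and 0.58 (SE 0.567).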

How the data were processed

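The authors aligned single 50-base reads of SmartSeq2 cDNA to mm10 with TopHat2 2.0.13, kept uniquely aligned reads and counted them per gene with HTSeq 0.6.0. The deposited values are these counts, without normalization or molecular identifiers, and the kit does not mark strand, so overlapping and antisense genes cannot be told apart. The 5 entries that name no gene, of which reads outside genes made up 16.4% to 59.7%, were left out. The members and lists were chosen with earlier results of these data known. Named are all called members, the 2 of smallest p per class in FC mice, a set of well-known chaperones, and called partners; other members were named after their values were seen.

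Tests were run in edgeR 4.0.16 (R 4.3.3) with TMM scaling, estimateDisp, glmQLFit with the newer quasi-likelihood method (legacy = FALSE) and glmQLFTest. The mouse was a block. A gene needed 10 counts in 12 (FC), 4 (NS), 3 (HC), 7 (NS and HC) or, for interactions, 3 libraries. SE is the log2 fold change divided by the root of F. That method was kept after the counts under both methods were seen. DESeq2 1.42.0 was an alternative. Levels are CPM scaled by TMM over 38 libraries, with factors from 0.306 to 1.83, and lengths are exons of GENCODE M21 (GRCm38). Counts of mice in which a gene was higher or lower refer to these scaled levels. Where the factors of a mouse's libraries differ, scaling can set the direction. The tests are two-sided. The FC and NS fits were also run on simulated counts with a single dispersion and no mouse effect, which does not show how they behave on these libraries. Libraries of a mouse come from the same animal and were paired for that reason. The values themselves hardly show this pairing. Their deviations from group means had a median correlation of 0.0407 (FC), -0.0127 (NS) and 0.0176 (HC). It exceeded 0.1 in 2 of 12 FC mice and in no NS or HC mouse. The description labels of some NS and HC libraries name another library, and titles were used. A deposited table of all libraries with the same counts for some of the genes was not used.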

Additional observations from a re-analysis of the deposited data

Results flagged for a closer look

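The NS groups of 4 libraries were searched for a library far from the other 3, in 41 groups of named members. In 4 of them, all dVenus+, the gap exceeded Dixon's 95% critical value. For normally distributed values chance gives about 1 in 20. The search used CPM without a log, and the flags come from the libraries of mice 18 and 21 alone. Their number can therefore not be judged against that rate. Cct2 stood at 132.5 CPM in mouse 18 and at 2.10 to 22.3 CPM in the others, and Tcp1 at 286 CPM in the same library and at 2.62 to 39.3 CPM in the others. Dnaja2 stood at 351 CPM in mouse 21, beside 45.6 to 67.4 CPM, and Dnajb1 at 368 CPM in that library, beside 35.5 to 88.7 CPM.

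For 3 of 76 members (3.95%) every NS mouse moved one way and every HC mouse the other, as did 70 of all 14075 genes (0.497%) with at least 10 counts in 3 libraries. The medians of the within-mouse log2 ratios were -4.10 in NS and 0.61 in HC mice for Dnajc28 (difference -4.72), -3.51 and 0.55 for Dnajc30 (-4.06), and 1.52 and -1.02 for Hspbp1 (2.54). Some of these directions rest on few counts. In dVenus- and dVenus+ libraries, Dnajc28 held 1 and 0 counts in NS mouse 19, 0 and 1 in HC mouse 15, and 0 and 4 in HC mouse 17. Dnajc30 held 0 and 1 in HC mouse 16, and Hspbp1 0 and 9 in NS mouse 18. In HC mouse 15, Dnajc30 held 774 and 239 counts, and its log2 ratio of 0.188 was positive only after scaling. Whether the shares of members and of all genes differ was not tested. No member was called by edgeR in the interaction of NS against HC (4 of 76 members had an unadjusted p under 0.05).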

How the results depend on the processing

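Counts of called members in FC mice (4 as reported) were 4 with DESeq2 size factors, 10 with the Wald test of DESeq2, 2 without a count filter, 2 with the stricter filter, 2 with log2 genes detected as covariate, 1 without mice 03 and 05, and 0 within the batch of 6 or of 4 mice. Settings chosen after the data were seen gave 2 with the older quasi-likelihood method, 0 with library totals alone, 0 with the granule cell marker level as covariate, 1 without mice 06, 07 and 14, and 5 without mice 04 and 05. Leaving out 1 mouse gave 2 to 4. Except for the Wald test and the granule marker covariate, the share of all genes called is not given for these settings. A changed count may therefore go with a changed number of calls over all genes and is no result on the members alone. In the fit without the replicate block, 5 members were called in FC mice, and 0 in NS, HC, both together and both interactions. In NS, HC and both together the Wald test called 5, 5 and 5 members, and in the interactions 7 (NS) and 8 (HC), while the other settings run gave 0, as did leaving out each mouse in the first 3 of these fits. The interactions were not run without single mice. Among named members, the sign of the log2 fold change in FC mice turned for Bag3 -0.67, Bag6 -0.23, Dnaja2 -0.12, Dnajc6 0.37 with the granule marker covariate, for Dnaja2 -0.27, Hspb11 -0.56, Hspbp1 -0.35 with library totals alone, for Dnaja2 -1.44, Dnajb1 -0.11, Dnajb9 -2.23, Hspa5 -1.81, Hspa9 -0.46, Hspbp1 -1.26, Hspe1 -0.00196, Tcp1 -1.07 within the batch of 4 mice, for Dnaja2 -0.0196, Hspbp1 -0.0372 without mice 03 and 05, for Dnajb9 -0.57, Hspb11 -0.39 in the Wald test, for Dnajb9 -0.64, Hspb11 -0.54 in the older quasi-likelihood method, for Hspb11 -0.52 with genes detected as covariate, for Hspb11 -0.0308, Hspbp1 -0.0398 without the filter, for Hspb11 -0.0593 within the batch of 6 mice, for Hspb11 -0.95, Hspbp1 -0.29 without mice 06, 07 and 14, for Hspbp1 -0.52 without the replicate block, for Hspbp1 -0.00551 with the stricter filter. On leaving out 1 mouse it turned for Hspb11 (-0.42 to 0.23) and Hspbp1 (-0.34 to 0.40). Of these only Bag3 was called as reported, and the cause was not tested. The granule marker covariate follows cell type within the FC mice, so that signs under it do not check the calls. Bag3 could not be tested with the stricter filter or without mouse 06 or 10. Hsph1 and Hspa8 stayed positive in every setting run. With 10 cells per library and 4 or 3 mice, fold changes of NS and HC mice have wide errors, so that absence of a call there does not show absence of a difference. Members under 10 counts were not testable at this depth.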
